A study of Mus musculus with 8 samples.

Results

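The genes described here encode the machinery that makes protein in the cytosol: the proteins of the large and small ribosomal subunits, the initiation and elongation factors with their regulators, and the aminoacyl-tRNA synthetases. They were chosen by gene symbol in the array's annotation. The rule took Rpl and Rps genes without the Rps6k kinases, Eif1 to Eif6, and Eef1 and Eef2. It also took synthetase symbols ending in ars, with or without a 1 or a 2. No measured value enters the symbols taken, but the members were chosen with earlier results of these data known. The symbol rule takes in a few genes outside the cytosol, since synthetase symbols ending in 2 stand for mitochondrial enzymes. The array carried 56 such genes, and 35 of them (62.5%) had a ratio on at least 3 arrays of each genotype and were tested, against 49.8% of the 5822 named genes on the array. Of the 35, 29 had a value on all 8 arrays. The tested members were 8 of 14 large subunit genes, 3 of 4 small subunit genes, 13 of 20 initiation factor genes, 2 of 4 elongation factor genes and 9 of 14 synthetase genes.

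The RNA came from cultured cortical astrocytes of neonatal mice null for connexin43 (Cx43 KO, 4 arrays) and of neonatal wild-type mice (WT, 4 arrays). Connexin43 is the main gap junction protein of astrocytes. The labels used here name a strain, C57BL/6j, for WT 1 alone, and no promoter or Cre behind the null allele. On each array astrocyte RNA was set against a pool of RNA from adult male and female mouse tissues, which is present on all 8 arrays and is not a control for genotype. The labels give each array a lot batch of the same number as its replicate, so that every lot batch held 1 Cx43 KO and 1 WT array. The title of Cx43 KO 3 lacks the word KO, and the label of WT 1 words the pool differently from the other 7. Nothing in the labels tells whether replicate arrays hold RNA of different cultures or animals. The p-values therefore cover the spread among these arrays alone, and that spread may be technical.

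Ribosomes translate mRNA in steps. Initiation factors bring the initiator tRNA and the small subunit to the start codon, elongation factors carry charged tRNAs to the ribosome and move it along, and the synthetases charge each tRNA with its amino acid. In mammals the mRNAs of ribosomal proteins and of several elongation factors begin with a run of pyrimidines, called a TOP tract, through which mTOR signalling controls how much they are translated. In cultured cells these mRNAs are among the most abundant, and their demand follows growth. In bulk RNA, fewer cells of a type and less RNA per cell cannot be told apart.

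Each value below is a centred log2 ratio of astrocytes over the pool. Base 2 was assumed, and that direction was set by the markers. A value above 0 means that the gene's ratio lay above the middle ratio of its array. It does not say how abundant one gene is beside another. Between 3506 and 5514 of 9568 features carried a ratio on an array, and no intensities were used here, so depth is unknown. Gja1, the gene of connexin43, has no feature in the annotation used, so the genotype was not checked by the targeted transcript. Of the astrocyte and radial glia markers, 5 of the 7 on the array were tested, and the glial lipid-binding protein gene Fabp7 lay at 3.73 ± 0.57 in Cx43 KO and 4.45 ± 0.18 in WT (SD, n = 4 each).

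No gene of the translation machinery passed the test between Cx43 KO and WT astrocytes. The count was 0 of 35 at an adjusted p of 0.05 (limma, Benjamini-Hochberg over all 3505 genes and unnamed features), where 0.0% of all tested passed. At an unadjusted p under 0.05 it was also 0 of 35, where 7.5% of all tested stood. The 2 genotypes overlapped in all 35 members, while they did not overlap in 5.22% of all tested. The Cx43 KO mean lay above the WT mean in 22 of 35 members, or 62.9%, beside 52.6% of all tested. The median difference (Cx43 KO minus WT) was 0.09 over the members and 0.02 over all tested. Single arrays moved the members' median, to -0.0047 without Cx43 KO 4, 0.04 without WT 4 and 0.19 without WT 1. With 1 array left out, the sign of the difference turned in 20 of the 35 members. Square brackets after a member's difference hold its lowest and highest value with 1 array left out. The smallest adjusted p of a member was 0.696, for Eef1a1.

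A difference that misses the threshold does not show that the genotypes are alike, so the intervals matter here. The 95% interval of the difference covered 0 in 35 of 35 members. It lay within a change of 1 on the log2 scale, or 2-fold, in 30 of them. The other 5 were the small subunit paralogue Rps4l, the initiation factors Eif3m and Eif2a, and the mitochondrial synthetases Lars2 and Iars2, whose intervals reached 1.04, 1.37, 1.02, 1.21 and -1.23. All 8 large subunit genes had intervals between -0.76 and 0.73.

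**Figure D1:**
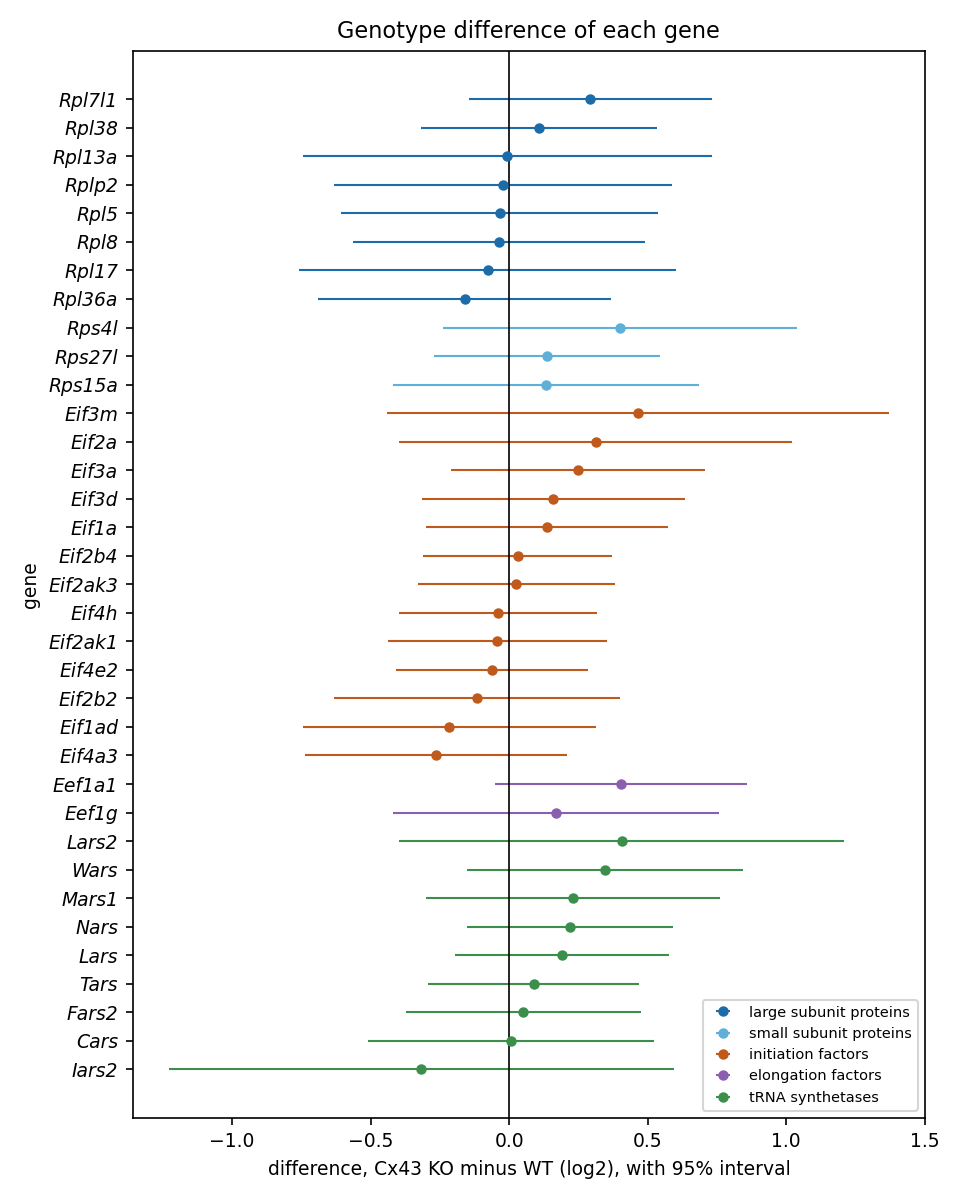
The difference between genotypes for each of the 35 members, as log2 Cx43 KO minus WT, with its 95% interval from limma, coloured by subfamily. Every interval crosses 0, from the lowest bound of -1.23 (Iars2) to the highest of 1.37 (Eif3m).

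Set side by side, the subfamilies differed more in their position against the tissue pool than between the genotypes. The median level over all 8 arrays was -0.54 for large subunit genes and -0.53 for small subunit genes, and 7 of 11 ribosomal protein genes had a mean below 0. It was 0.29 for initiation factors, 0.29 for elongation factors and 0.25 for synthetases. The median over all genes tested was 0.02. The median difference between genotypes was -0.03 for the large subunit, 0.14 for the small subunit, 0.03 for initiation factors, 0.29 for the 2 elongation factors and 0.19 for synthetases. These medians are descriptions of lists of 2 to 13 genes.

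**Figure D2:**
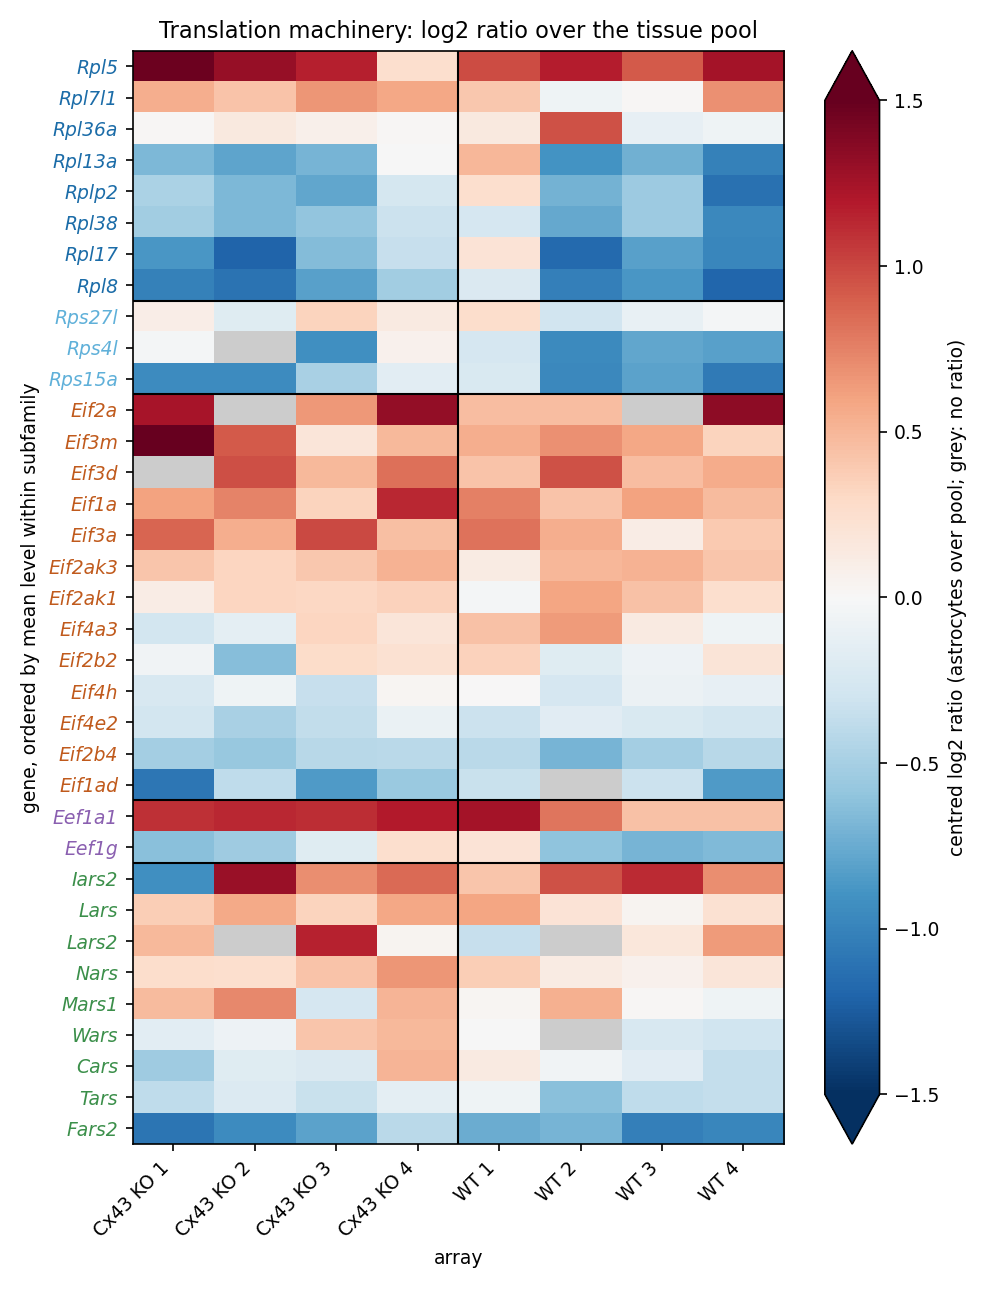
The centred log2 ratio over the tissue pool of each of the 35 members on each array, Cx43 KO arrays left and WT arrays right, ordered by mean level within subfamily, with grey for no ratio. Most ribosomal protein genes are blue, and they are palest or red on Cx43 KO 4 and on WT 1. Values outside the colour scale take its end colours.

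The large subunit genes ranged from Rpl5 at the top to Rpl8 at the bottom. Rpl5, whose protein carries the 5S rRNA into the large subunit, lay at 1.47, 1.31, 1.17 and 0.25 on Cx43 KO arrays 1 to 4, against 0.98, 1.18, 0.92 and 1.25 on WT arrays 1 to 4. Cx43 KO 4 was the low one, and the genotypes overlapped (difference -0.03 [-0.17, 0.23], SE 0.26, limma adjusted p = 0.990). Rpl8, a protein close to the peptidyl transferase centre, lay at -1.02, -1.11, -0.81 and -0.52 in Cx43 KO, against -0.21, -1.03, -0.87 and -1.19 in WT. Here Cx43 KO 4 was the highest of its genotype and WT 1 the highest of all (difference -0.04 [-0.16, 0.17], SE 0.24, adjusted p = 0.986).

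Rpl7l1, a paralogue of the core protein gene Rpl7, stood above 0 on every Cx43 KO array, at 0.55, 0.43, 0.66 and 0.59, against 0.41, -0.06, 0.02 and 0.69 in WT. The 4 Cx43 KO values lay close together while the WT values were spread, with WT 4 above all of Cx43 KO. The difference was 0.29 [0.18, 0.43] (SE 0.20, adjusted p = 0.776). Rpl36a lay at 0.02, 0.14, 0.08 and 0.02 in Cx43 KO, against 0.15, 0.96, -0.12 and -0.07 in WT. WT 2 alone was high, and without it the sign of the difference turned, to 0.08 in place of -0.16 [-0.28, 0.08] (SE 0.24, adjusted p = 0.905). Rpl38, whose loss in mice disturbs the translation of Hox mRNAs, lay at -0.52, -0.67, -0.60 and -0.33 in Cx43 KO, against -0.26, -0.76, -0.55 and -0.97 in WT. The WT values bracketed those of Cx43 KO (difference 0.11 [-0.0053, 0.23], SE 0.19, adjusted p = 0.929), and it was WT 4 whose omission gave the negative value.

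Of the small subunit genes, Rps15a, a core protein gene, lay at -0.94, -0.94, -0.49 and -0.16 in Cx43 KO, against -0.22, -0.97, -0.81 and -1.06 in WT. The genotypes overlapped, with the 4th of the Cx43 KO arrays and the 1st of the WT arrays highest (difference 0.13 [-0.03, 0.31], SE 0.25, adjusted p = 0.929). The paralogue Rps27l, a p53 target gene, lay at 0.10, -0.18, 0.33 and 0.13 in Cx43 KO, against 0.26, -0.28, -0.11 and -0.03 in WT. Its difference was 0.14 [0.06, 0.24] (SE 0.18, adjusted p = 0.885), lowest without WT 2 and highest without WT 1. Rps4l had no ratio on Cx43 KO 2 and lay at -0.03, -0.93 and 0.06 on Cx43 KO 1, 3 and 4, against -0.25, -0.96, -0.78 and -0.81 in WT. Cx43 KO 3 fell among the WT values while the other two lay above all of them (difference 0.40 [0.22, 0.71], SE 0.28, adjusted p = 0.778).

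Many members, ribosomal protein genes among them, shared a pattern across arrays that did not follow genotype. Rpl8, Rpl13a, Rpl17, Rpl38, Rplp2 and Rps15a each had their highest Cx43 KO value on Cx43 KO 4 and their highest WT value on WT 1, a grouping chosen after the values were seen. They make up 6 of the 8 ribosomal protein genes that remain once the paralogues Rpl7l1, Rps27l and Rps4l are set aside, with Rpl5 and Rpl36a as the exceptions. The pattern was not one of ribosomal protein genes alone. Over genes with 8 values it held for 6 of all 10 ribosomal protein genes, for 2 of 2 elongation factor genes (Eef1a1 and Eef1g), for 4 of 5 cytosolic synthetase genes (Cars, Lars, Nars and Tars) and for 3 of 10 initiation factor genes. In Eef1a1 Cx43 KO 4 stood 0.07 above the next Cx43 KO array and WT 1 stood 0.45 above the next WT array. The pattern was counted by rank alone, and some gaps were small. In the initiation factor gene Eif2b4 the gaps were 0.02 on Cx43 KO 4 and 0.0034 on WT 1, and in Lars 0.01 on Cx43 KO 4. Over the 29 members with 8 values the pattern held in 15, or 51.7%, and over the 2596 genes with 8 values in 15.0%. The number of ratios was 5514 on WT 1, the most of any array, and 5042 on Cx43 KO 4. Cx43 KO 3 (5353) and WT 4 (5343) had more than Cx43 KO 4.

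Rpl13a, which encodes a large subunit protein that human monocytic cells also use to repress inflammatory mRNAs, showed the widest spread of the 8. It lay at -0.68, -0.80, -0.69 and -1.22e-05 in Cx43 KO, against 0.50, -0.90, -0.72 and -1.02 in WT. Cx43 KO 4 stood 0.68 above the next Cx43 KO array and WT 1 stood 1.22 above the next WT array. Rpl17, whose protein lines the exit tunnel, lay at -0.87, -1.21, -0.65 and -0.35 in Cx43 KO, against 0.21, -1.17, -0.82 and -0.98 in WT. Rplp2, an acidic protein of the ribosomal stalk that binds elongation factors, lay at -0.47, -0.67, -0.78 and -0.27 in Cx43 KO, against 0.26, -0.71, -0.54 and -1.11 in WT. In all 3 genes the value lay below 0 on 3 of the WT arrays and above it on WT 1.

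The median of the 8 genes was -0.60, -0.73, -0.62 and -0.21 on Cx43 KO 1 to 4, against 0.18, -0.83, -0.63 and -1.0002 on WT 1 to 4. WT 1 was the highest and Cx43 KO 4 the next under median centring, no centring, scale and quantile normalization alike; without centring the medians were -0.33, -0.46, -0.40 and -0.11 in Cx43 KO, against 0.26, -0.51, -0.38 and -0.80 in WT. The median difference of the large subunit list, -0.03 with all arrays, depended on the arrays used. It was 0.06 without Cx43 KO 2, -0.13 without Cx43 KO 4, 0.23 without WT 1, -0.16 without WT 4 and 0.15 without Cx43 KO 4 and WT 1, and 0 members passed in each case. The 2 arrays lie in different lot batches. For Rpl13a the difference within a lot batch was -1.17 in lot batch 1, 0.11 in lot batch 2, 0.03 in lot batch 3 and 1.02 in lot batch 4.

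**Figure D3:**
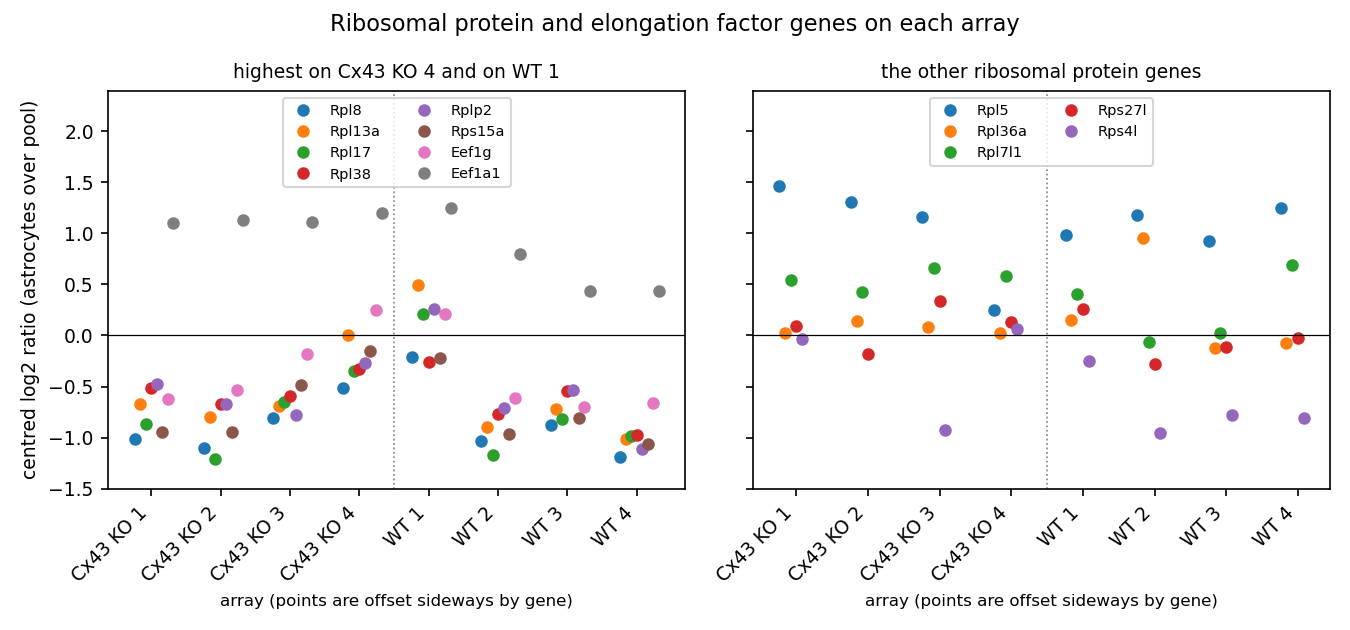
The centred log2 ratio over the pool on each array for the 6 ribosomal protein genes and 2 elongation factor genes highest on Cx43 KO 4 and on WT 1 of their genotype (left), and for the other ribosomal protein genes (right); points are offset sideways by gene. Rps4l, on the right because it has no value on Cx43 KO 2, is also highest on Cx43 KO 4 and on WT 1. On the left, Rpl13a reaches -1.22e-05 on Cx43 KO 4 and 0.50 on WT 1, while every gene but Eef1a1 lies below 0 on Cx43 KO 1 to 3 and on WT 2 to 4.

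Markers of other cells also moved on Cx43 KO 4. Over 8 markers of microglia and macrophages, the median was -0.28, 0.15, 0.77 and 2.04 on Cx43 KO 1 to 4, against 0.42, 0.94, 1.10 and 0.44 on WT 1 to 4. The median of 6 fibroblast, meningeal and mural markers was -1.40, -1.16, -0.32 and 1.89 in Cx43 KO, against 1.33, 0.25, 0.56 and 0.80 in WT. The median of 3 astrocyte markers was 1.25, 1.08, 1.65 and -0.59 in Cx43 KO, against 1.06, 1.29, 1.17 and 1.54 in WT. Cx43 KO 4 was therefore high in both other lists and low in astrocyte markers. WT 1 was the highest WT array in fibroblast markers but the lowest in microglia markers, at 0.42 beside 0.44 on WT 4. It was also the lowest WT array in this astrocyte median. That median is the value of Ttyh1 on each array. Fabp7 lay at 3.63, 4.45, 3.78 and 3.06 in Cx43 KO, against 4.61, 4.47, 4.51 and 4.19 in WT, with Cx43 KO 4 the lowest of all and WT 1 the highest. Fabp7 was the exception for WT 1, which was the lowest WT array in every other tested astrocyte marker. There WT 1 lay at -0.08 in Aldoc, 1.78 in Id4, 0.79 in Sox9 (no ratio on WT 2) and 1.06 in Ttyh1. No marker of the fibroblast list lacked a ratio on all arrays, while Slc1a2 of the astrocyte list and Fcer1g, Ctss and Ptprc of the microglia list did. Of the markers on the array, 8 of 10 for fibroblasts, 9 of 14 for microglia, 4 of 7 for neurons and 2 of 4 for oligodendrocytes were tested. The mean was lower in Cx43 KO for 6 of 8 fibroblast, 6 of 9 microglia and 4 of 5 astrocyte markers. Their median differences were -0.75, -0.20 and -0.42. It was also lower for 2 of 4 neuron and 2 of 2 oligodendrocyte markers, and higher for 52.6% of all tested. At an unadjusted limma p under 0.05 stood the fibroblast markers Pdgfra and Ptgds and the astrocyte marker Fabp7, beside 7.5% of all tested. Pdgfra is in the oligodendrocyte list too. None passed the adjusted test. The array medians of the neuron list ran between -2.01 and -0.03 in Cx43 KO and between -0.87 and -0.07 in WT over 3 genes. Of the oligodendrocyte list Cnp alone had 8 values, between -1.53 and 0.13 in Cx43 KO and between -0.42 and 0.18 in WT. The part of other cells in the ribosomal protein values was not tested.

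**Figure D4:**
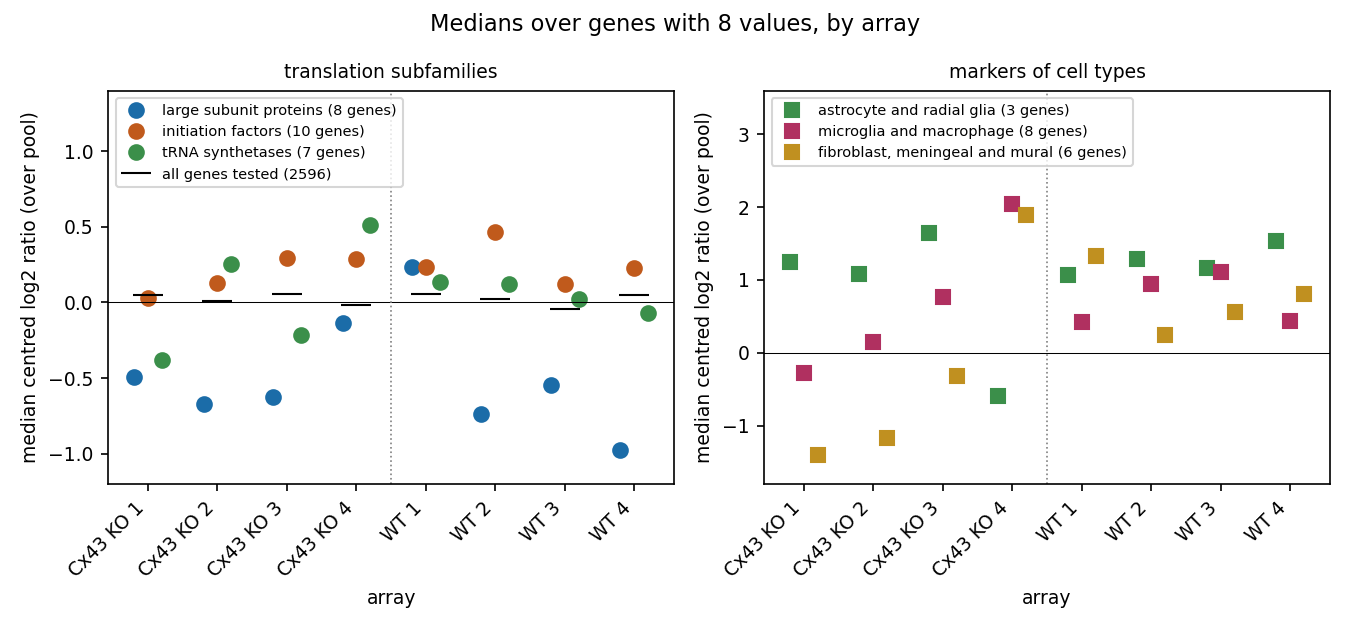
The median centred log2 ratio over the pool on each array, for 3 translation subfamilies with black bars for all genes tested (left) and for 3 lists of cell type markers (right), over genes with 8 values. Large subunit genes lie at -0.13 on Cx43 KO 4 and at 0.23 on WT 1, the highest array of each genotype, and Cx43 KO 4 is highest in the microglia (2.04) and fibroblast (1.89) lists.

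Some promoters of ribosomal protein genes held a pyrimidine run at or near the annotated start, where a TOP tract begins. The first 4 windows are of genes that were highest on Cx43 KO 4 and WT 1, and the last 3 are of genes that were not. That split was made after the values were seen, and windows of other genes with the pattern are not shown. A link between the runs and the array pattern was not tested. Of the last 3, Rps27l had a run near the start and Rpl5 and Rpl7l1 had none there. Each holds 50 bases before and 20 after the annotated start, 5′ to 3′ on the gene's strand, from RefSeq on build GRCm38.p6. Capitals mark a C followed by at least 4 bases that are each C or T, within 5 bases of the start.
Rpl13a, chr7:45128726-45128795, minus strand: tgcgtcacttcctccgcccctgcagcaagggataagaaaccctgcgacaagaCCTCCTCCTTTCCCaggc
Rps15a, chr7:118116128-118116197, minus strand: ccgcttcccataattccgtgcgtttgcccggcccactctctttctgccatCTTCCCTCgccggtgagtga
Rplp2, chr7:141447601-141447670, plus strand: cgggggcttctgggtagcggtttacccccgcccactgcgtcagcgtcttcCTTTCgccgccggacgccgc
Rpl38, chr11:114668530-114668599, plus strand: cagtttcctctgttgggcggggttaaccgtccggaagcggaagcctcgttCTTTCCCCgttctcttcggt
Rps27l, chr9:66946036-66946105, plus strand: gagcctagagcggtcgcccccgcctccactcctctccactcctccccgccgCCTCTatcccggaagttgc
Rpl5, chr5:107900478-107900547, plus strand: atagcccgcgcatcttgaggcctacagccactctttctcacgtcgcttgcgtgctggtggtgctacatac
Rpl7l1, chr17:46782637-46782706, minus strand: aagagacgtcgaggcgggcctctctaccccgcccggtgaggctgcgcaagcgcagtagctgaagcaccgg
A run opened with a C at the annotated start in 3 of 9 promoters of tested ribosomal protein genes (Rps15a, Rplp2 and Rpl38). The count was 0 of 20 for promoters of other tested members and 2.51% for all 32851 promoters. Pyrimidines also stood directly before that C in these 3 promoters. In Rplp2 they held C as well as T, so its marked letters are the end of a longer run. Within 5 bases of the start a run lay in 5 of 9 (55.6%) ribosomal protein promoters. It lay there in 12 of 29 (41.4%) promoters of all tested members and in 18.3% of all. Rps27l has another annotated start, with no run near it, and Rpl36a had none near its start. Only the gene's own strand was searched, since the run is read in the mRNA. Promoters were found for 26 of the 35 members, and Rpl8, Rpl17 and Rps4l had none shown. A match is a description of these letters, and no match says only that no such run begins within 5 bases of the annotated start. Pyrimidine runs further from the start were not marked, and the Rpl5 and Rpl7l1 windows hold such runs.

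The smallest p of the machinery was that of 1 of the 2 elongation factor genes, Eef1a1. Eef1a1, which carries charged tRNAs to the ribosome, lay at 1.10, 1.13, 1.11 and 1.20 in Cx43 KO, against 1.25, 0.80, 0.44 and 0.44 in WT. The Cx43 KO values lay close together (SD 0.04) and the WT values were spread (SD 0.39), with WT 1 above every Cx43 KO value. The difference was 0.40 [0.31, 0.58] (SE 0.20, 95% interval -0.05 to 0.86, adjusted p = 0.696), positive in 3 of 4 lot batches, and it ranged from 0.24 to 0.59 over the alternatives. Eef1g, a subunit of the complex that reloads Eef1a1 with GTP, lay at -0.63, -0.53, -0.18 and 0.25 in Cx43 KO, against 0.21, -0.61, -0.70 and -0.67 in WT. The genotypes overlapped (difference 0.17 [-0.0053, 0.39], SE 0.27, adjusted p = 0.916), and the value was negative without Cx43 KO 4.

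Among the initiation factors, the 3 eIF3 subunit genes had means above 0 in both genotypes. Eif3a, the scaffold subunit of eIF3, lay at 0.88, 0.54, 0.99 and 0.45 in Cx43 KO, against 0.82, 0.54, 0.11 and 0.39 in WT. WT 3 was low, and the other arrays overlapped (difference 0.25 [0.13, 0.37], SE 0.21, adjusted p = 0.804). Eif3m lay at 2.42, 0.92, 0.18 and 0.48 in Cx43 KO, against 0.54, 0.68, 0.58 and 0.33 in WT. Cx43 KO 1 alone was far above the rest (difference 0.47 [-0.0068, 0.74], SE 0.41, adjusted p = 0.811), and without it the difference was the lowest. The third eIF3 gene, Eif3d, had no ratio on Cx43 KO 1 and differed by 0.16 [0.06, 0.30] (SE 0.21, adjusted p = 0.878).

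Eif4a3, the RNA helicase of the exon junction complex, was the initiation factor symbol with the smallest p and did not pass. It lay at -0.27, -0.15, 0.32 and 0.18 in Cx43 KO, against 0.44, 0.64, 0.13 and -0.06 in WT. Cx43 KO was lower in lot batches 1 and 2 and higher in 3 and 4 (difference -0.27 [-0.38, -0.15], SE 0.21, adjusted p = 0.799). Eif2a, an alternative carrier of initiator tRNA, had no ratio on Cx43 KO 2 or WT 3. It lay at 1.24, 0.65 and 1.32 on Cx43 KO 1, 3 and 4, against 0.46, 0.47 and 1.34 on WT 1, 2 and 4 (difference 0.31 [0.16, 0.60], SE 0.31, adjusted p = 0.835). Eif1ad, which holds an eIF1A domain, was the lowest, at -1.08, -0.38, -0.85 and -0.56 in Cx43 KO, against -0.34, -0.32 and -0.85 on WT 1, 3 and 4 (difference -0.22 [-0.39, -0.10], SE 0.24, adjusted p = 0.847).

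The other 7 initiation factor genes differed by between -0.12 and 0.14. They were Eif1a, which helps the small subunit scan, Eif2b2 and Eif2b4, subunits of the eIF2 exchange factor, Eif4e2, a cap-binding repressor, Eif4h, a partner of eIF4A, and the eIF2 kinases Eif2ak1 and Eif2ak3. Eif2ak1 responds to haem and Eif2ak3, known as PERK, to stress in the endoplasmic reticulum. Eif2b4 was among the steadiest members, at -0.48 ± 0.08 in Cx43 KO and -0.51 ± 0.14 in WT (SD, n = 4 each). Eif2ak3 lay at 0.42 ± 0.08 in Cx43 KO and 0.39 ± 0.18 in WT (SD, n = 4 each). Eif4e2 averaged 3 features whose differences were -0.03, -0.18 and 0.11.

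The cytosolic synthetases had a Cx43 KO mean above the WT mean in 6 of 6 genes, with a median difference of 0.21, and in 5 or 6 of them under each alternative that gave all 6 a value. No p is given for this count, and 52.6% of all tested genes lay in the same direction. Wars, the tryptophan enzyme, which interferon induces, lay at -0.16, -0.07, 0.41 and 0.49 in Cx43 KO, against -0.003, -0.24 and -0.29 on WT 1, 3 and 4. WT 1 lay above 2 of the Cx43 KO arrays (difference 0.35 [0.24, 0.45], SE 0.22, adjusted p = 0.760). Nars, the asparagine enzyme, lay at 0.27, 0.25, 0.43 and 0.67 in Cx43 KO, against 0.37, 0.12, 0.06 and 0.18 in WT (difference 0.22 [0.13, 0.28], SE 0.17, adjusted p = 0.778). Mars1, the methionine enzyme, differed by 0.23 [0.11, 0.44] (SE 0.24) and Lars, the leucine enzyme, by 0.19 [0.12, 0.30] (SE 0.17). Tars, the threonine enzyme, differed by 0.09 [-0.0021, 0.19] (SE 0.17) and Cars, the cysteine enzyme, by 0.0055 [-0.20, 0.15] (SE 0.23). Lars averaged 3 features that differed in level, with means of 0.80, 0.51 and 0.06 in Cx43 KO, against 0.60, 0.18 and 0.01 in WT.

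The 3 mitochondrial synthetases gave 2 positive differences and 1 negative one. Lars2, the mitochondrial leucine enzyme, had no ratio on Cx43 KO 2 or WT 2, and lay at 0.49, 1.16 and 0.04 on Cx43 KO 1, 3 and 4, against -0.34, 0.18 and 0.64 on WT 1, 3 and 4 (difference 0.41 [0.11, 0.67], SE 0.35, adjusted p = 0.811). The difference was lowest without Cx43 KO 3 and highest without Cx43 KO 4. Iars2, the isoleucine enzyme, lay at -0.92, 1.29, 0.70 and 0.85 in Cx43 KO, against 0.42, 0.95, 1.12 and 0.70 in WT. Cx43 KO 1 alone was low (difference -0.32 [-0.59, 0.15], SE 0.41, adjusted p = 0.874). Fars2, the phenylalanine enzyme, was the lowest synthetase, at -1.09, -0.95, -0.80 and -0.40 in Cx43 KO, against -0.75, -0.70, -1.03 and -0.97 in WT (difference 0.05 [-0.09, 0.15], SE 0.19, adjusted p = 0.974).

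The 21 members that were not tested hold some of the best known translation genes. No array gave a ratio for 12 of them: Eef1a2, Eif1ax, Eif2s3y, Eif3b, Eif3l, Rpl21, Rpl23, Rpl35, Rpl35a, Rpl9, Rars2 and Sars2. The other 9, Eef2k, Eif2ak4, Eif2b1, Eif4ebp2, Kars, Rars, Rpl22l1, Rps6 and Wars2, had ratios on too few arrays. Rps6, the small subunit protein that S6 kinase phosphorylates, had a ratio on WT 1 only, at 0.68.

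Genes that work beside the machinery were counted from lists, in which 0 genes passed. Of the 40S and 60S partners and nascent chain factors, 11 of 13 genes on the array were tested, 5 higher and 6 lower in Cx43 KO, with a median difference of -0.04. Fau, which encodes a small subunit protein fused to a ubiquitin-like domain, lay at -0.28, -0.57, -0.08 and 0.45 in Cx43 KO, against -0.04, -0.47, -0.34 and -0.01 in WT, and was chosen after its values were seen. Srprb, the signal recognition receptor subunit, differed by -0.46 (SE 0.28) and Srp68, of the signal recognition particle, by -0.28 (SE 0.18). Of the termination, recycling and mRNA-binding genes, 6 of 14 were tested, 5 higher and 1 lower (median 0.19), with Drg2 at a difference of 0.38 (SE 0.20) and the release factor Gspt1 at 0.23 (SE 0.20).

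Of the ribosome biogenesis and RNA polymerase I genes, 22 of 40 were tested, and 17 had a higher and 5 a lower mean in Cx43 KO, with a median difference of 0.21 that ranged from 0.10 (without WT 3) to 0.27 (without Cx43 KO 3) with 1 array left out. Of all tested, 52.6% had a higher mean in Cx43 KO, and their median difference was 0.02. At an unadjusted p under 0.05 there were 3 of 22, Nvl, Ddx24 and Senp3, beside 7.5% of all tested, and 0 passed the adjusted test. That count was 1 without Cx43 KO 3, without WT 3 and under scale or quantile normalization, and 5 without WT 4. Nvl, an ATPase of large subunit assembly, differed by 1.19 (SE 0.28, adjusted p = 0.471) on 3 arrays of each genotype and Ddx24, a DEAD-box helicase, by 0.76 (SE 0.31, adjusted p = 0.655). Of the mTOR, S6 kinase and MNK signalling genes, 10 of 19 were tested, 4 higher and 6 lower (median -0.12), with the phosphatase scaffold Ppp2r1a at 0.25 (SE 0.21) and the AMPK subunit Prkaa1 at -0.69 (SE 0.64). The tested genes of this list do not include mTOR itself, an S6 kinase or a MNK kinase, and Mlst8, Akt1s1 and Mknk1 had no ratio on any array. Of the integrated stress response and ATF4 target genes, 7 of 14 were tested, 5 higher and 2 lower (median 0.14). Of these 7, 1 (Ppp1r15a) stood under an unadjusted limma p of 0.05, beside 7.5% of all tested. Ppp1r15a, which brings a phosphatase to eIF2, differed by 0.59 (SE 0.25, adjusted p = 0.655) and Psat1, of serine synthesis, by -0.58 (SE 0.26, adjusted p = 0.666). Of a list of other synthetase, synthetase scaffold and tRNA modification genes, 2 of 9 were tested. Eprs, the glutamate and proline enzyme, differed by 0.29 (SE 0.25) and Trmt1, a tRNA methyltransferase, by 0.40 (SE 0.21).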

How the data were processed

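The authors deposited 1 signed log ratio per feature and array, read here as log2; per the labels, channel 2 held astrocyte RNA and channel 1 the pool. Dyes, scanner, background correction, normalization and log base: not given in the sources used here. The direction was set by astrocyte genes above, and adult tissue genes below, the pool: the median level was 1.19 for 5 astrocyte genes and -5.44 for 5 tissue genes. If the base was another one, all log2 values scale by 1 factor and signs and p-values stay. The count of intervals within 2-fold could then change. Exact 0 was read as no ratio. Features of a gene were averaged on each array and each array was centred on its median. Of 35 tested members, 6 had several features. The 3 member features that name several genes were left out.

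limma 3.58.1 (R 4.3.3; lmFit, eBayes, two-sided, Benjamini-Hochberg, threshold 0.05) was fitted on 3505 genes and unnamed features with a ratio on at least 3 arrays per genotype, without a block, and tested on simulated data. Lot batch pairs the arrays per the labels; the deviations of same-numbered arrays from their genotype means correlated at -0.18, 0.19, -0.13 and -0.19 across 2596 genes in lot batches 1 to 4. Alternatives were the replicate block, leaving out arrays or lot batches, 3 other scalings, missing-value rules, 1 feature per gene and array weights.

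Genes named with values on every array were the 4 module markers (Eef1a1, Eif3a, Eif4a3, Rpl7l1), the 3 members of each subfamily with the smallest p, its highest and lowest by level, and any member whose genotypes did not overlap; in related lists, the 2 with the smallest p. Rpl13a, Rpl17, Rplp2 and any other gene marked so in the text were picked with their values in view. The members and lists were chosen with earlier results of these data known. The array values give no counts, and the number of arrays limits the precision.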

Additional observations from a re-analysis of the deposited data

Results flagged for a closer look

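In 62 sets of 4 arrays, 1 for each member and genotype with 4 values, 4 had an array far from the other 3 by Dixon's test at the 95% level, which chance gives for about 1 in 20 sets. Eef1g was high on WT 1, at 0.21. Rpl13a was high on Cx43 KO 4, at -1.22e-05. Mars1 was high on WT 2, at 0.54. Eif2ak1 was low on Cx43 KO 1, at 0.11, where 2 features were averaged and 1 on the other Cx43 KO arrays.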

How the results depend on the processing

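Under all 21 alternatives 0 members passed at an adjusted p of 0.05. The count of members under an unadjusted p of 0.05 was 0 to 1 when 1 array was left out, and 1 with lot batch 1 or lot batch 4 left out, with array weights and without WT 1 and Cx43 KO 4 together, which was chosen after seeing the data. The member was Eef1a1 with WT 1, lot batch 1 or both arrays left out and with array weights, Rps4l without Cx43 KO 3, Rpl7l1 without WT 4 and Lars2 with lot batch 4 left out. Over all genes, 0 to 4 passed the adjusted test when 1 array was left out (4 without Cx43 KO 4, 1 without WT 2) and 4 without both arrays, none of them a member. At an unadjusted p under 0.05 there were 159 to 418 genes when 1 array was left out (418 without Cx43 KO 4, 159 without WT 3), 125 with lot batch 3 and 536 with lot batch 4 left out, and 468 with array weights, against 263. The small subunit median difference was 0.42 with lot batch 1 left out. The paired fit with the replicate block gave 196 genes at an unadjusted p under 0.05, 0 passing and 0 members at either threshold, and changed no call. The sign of the difference turned under at least 1 alternative in 22 of 35 members, 20 of them with 1 array left out. Among the members with the smallest p of each subfamily it turned for Rpl36a (-0.278 to 0.0827 when 1 array was left out, 0.0574 with lot batch 2 left out), Rpl38 (-0.0053 to 0.233, and -0.0723 with lot batch 4 left out), Rps15a (-0.0252 to 0.314, and -0.125 with lot batch 4 left out), Eif3m (-0.0068 to 0.740, and -0.0046 with lot batch 1 left out) and Eef1g (-0.0053 to 0.386, and -0.0806 with lot batch 4 left out). The cause was not tested. Signal over background was not used here, and the number of arrays limits the precision.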
